A study of Danio rerio with 6 samples.

Results

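The genes described here are the 10 Hox genes of the zebrafish hoxba cluster from hoxb1a to hoxb10a, 10 of the 32266 Ensembl genes in the count table. They were taken by their identifiers and not by a cut on their values, though earlier results of these data were known. They were read as hoxb1a to hoxb4a, the 4 genes of anterior identity, and hoxb5a to hoxb10a, the 6 genes of posterior identity. Transcripts were counted in 6 samples of DsRed-positive cells sorted from dissociated zebrafish embryos at late stages of the otic-epibranchial progenitor domain (OEPD), the territory from which the inner ear and the epibranchial ganglia arise. All embryos carried the pax8:DsRed reporter, in heterozygosity according to the study's methods, which labels the OEPD and the nephric anlagen, the precursors of the kidney. The 3 control samples (controls 1, 2 and 3) came from wild-type embryos. The 3 atoh1b-MO samples (numbered 2, 4 and 5) came from embryos injected at the one-cell stage with a morpholino against atoh1b, an antisense reagent used to deplete a factor of early hair cell formation. For these samples the titles and the study name atoh1b but the genotype label reads dlx3b/4b knockdown, and grouping went by the titles. The row of atoh1b, on an unplaced scaffold, held 0 counts in all 6 samples, so the depletion could not be checked in these data. Each sample pools the cells of many embryos and of both labelled tissues, and in such bulk samples fewer cells of a type and less RNA per cell cannot be told apart.

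Hox genes encode homeodomain transcription factors that give cells their position along the body axis. They lie in clusters, and their order on the chromosome follows the order in which they are expressed from head to tail, so that genes of low paralogue number reach far into the hindbrain and genes of high number are restricted to the trunk and tail. In teleosts the ancestral HoxB cluster exists as the hoxba and hoxbb clusters, a product of genome duplication. Of the tissues marked by pax8:DsRed, the OEPD forms beside the hindbrain and the nephric anlagen in the intermediate mesoderm of the trunk. The question put to the data was how much anterior and how much posterior hoxba transcript the sorted cells held, and whether the atoh1b morpholino or a single sample moved it.

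On the GRCz10 assembly the 10 genes lay on the forward strand of chromosome 3 over 101876 bases, from hoxb10a (ENSDARG00000011579, chr3:23538719-23541315) to hoxb1a (ENSDARG00000008174, chr3:23638350-23640594). Their order on the chromosome was that of their paralogue numbers, with hoxb3a as the gene whose annotated exons reach farthest. The hoxb3a model (ENSDARG00000029263, chr3:23567486-23618858) spanned 51373 bases and enclosed hoxb4a, hoxb5a and hoxb6a between its exons. Of its 3977 exon bases, 481 (12.1%) were shared with an antisense gene (ENSDARG00000097891), and since the use of strand in counting is not stated, reads of these bases cannot be told apart. The other 9 genes shared no exon base with any annotated gene. Each of the 10 genes was supported by between 247 and 6475 counts in every sample, out of total counts of 24120228 to 37169850, and all 10 passed the filter on low counts.

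Before the members are described, control 3 must be introduced, as it stood apart from the other samples. The study left a single wild-type sample out before testing without naming it in the text at hand, and control 3 was taken to be that sample from its distance in the data. All 9 nephric marker genes had their lowest level in control 3, at least 2-fold below the mean of controls 1 and 2, and their summed level was 164 CPM (counts scaled to a common library size with TMM, the trimmed mean of M-values) in control 3 and 1612 to 2491 CPM in the other samples. The reporter's own gene pax8 was at 16.5 CPM in control 3 and at 109 to 295 CPM elsewhere, and pax2a at 74.2 CPM against 404 to 569 CPM. Summed OEPD markers, of which pax8 and pax2a are also on the nephric list, were at 515 CPM against 953 to 1699 CPM. The other 8 OEPD genes summed to 424 CPM in control 3 and to 517 and 908 CPM in controls 1 and 2. In atoh1b-MO 2, 4 and 5 their sums were 440, 432 and 416 CPM. Of these 8 genes 2 were lowest and 1 was highest in control 3, and of all 10 OEPD genes 4 were lowest and 1 was highest. Of 5 blood and vessel markers listed 3 were found, gata1a, tal1 and lmo2, which summed to 89.1 CPM against 1189 to 2877 CPM. In the opposite direction, 7 of 8 hindbrain and neural plate markers and 7 of 7 forebrain and midbrain markers were highest in control 3, with sums of 1346 CPM against 202 to 644 CPM and of 296 CPM against 32.6 to 130 CPM. Among these, mafba was at 78.0 CPM and otx2b at 58.6 CPM in control 3. The exception, gbx2, was lowest in control 3. Of 8 paraxial mesoderm and tailbud markers 6 were highest in control 3, with a sum of 609 CPM against 380 to 545 CPM. The exceptions were tbx16, lowest in control 3 with 32.3 CPM against 58.0 to 122 CPM, and tbxta with 70.1 CPM against 52.6 to 104 CPM. In both neural lists atoh1b-MO 2 held the second-highest sum and, in the nephric list, the second-lowest. No marker of these lists was at 0 in any sample, except for the OEPD gene pax2b in atoh1b-MO 4. Each comparison below is therefore given with controls 1 and 2 (5 samples) and with all controls (6 samples).

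All 10 genes were transcribed in all samples. The posterior genes held most of the signal, though a class of 6 of the 10 genes would do so even at equal levels per gene. Per length of exon, the highest mean over controls 1 and 2 and the 3 atoh1b-MO samples was that of hoxb9a with 71.9 ± 10.8 CPM per kb (SD, n = 5). It was followed by hoxb6a with 62.5 ± 10.7, hoxb10a with 47.8 ± 12.9 and hoxb7a with 42.5 ± 6.87 CPM per kb. These 4 genes all belong to the posterior class. A second tier was formed by hoxb3a with 27.6 ± 3.16, hoxb1a with 22.1 ± 3.95, hoxb8a with 22.0 ± 4.10 and hoxb5a with 19.6 ± 2.26 CPM per kb. The lowest levels per length were those of hoxb2a with 9.55 ± 1.40 and hoxb4a with 7.25 ± 1.17 CPM per kb, still above the median of 4.01 CPM per kb of all tested genes. The highest mean level per length was 9.92-fold the lowest. Of the 9 steps in this order, 2 separated genes whose ranges over the 5 samples did not overlap, from hoxb7a to hoxb3a and from hoxb5a to hoxb2a. At the other 7 steps the ranges overlapped, so the order of hoxb3a, hoxb1a, hoxb8a and hoxb5a among each other, for example, was not resolved. The level per length did not fall or rise steadily along the cluster but had peaks at hoxb3a, hoxb6a and hoxb9a, with hoxb4a and hoxb8a between them.

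**Figure D1:**
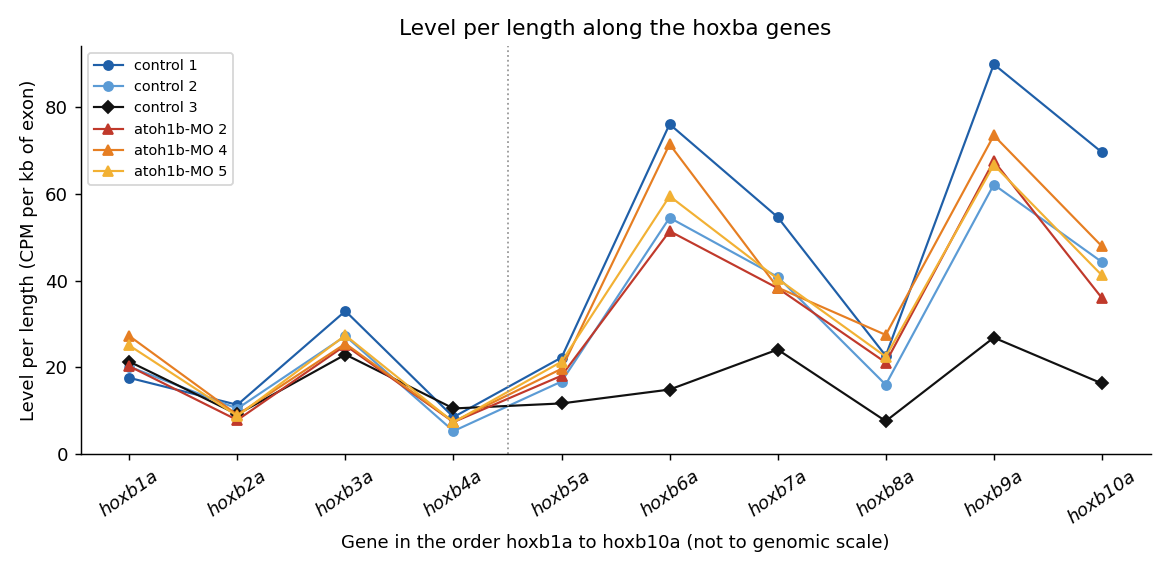
Level per length (CPM per kb of exon, linear axis) of the 10 hoxba genes in each of the 6 samples, in the order of paralogue number. Each line joins the genes of a single sample, and the dotted line separates hoxb1a to hoxb4a from hoxb5a to hoxb10a. The line of control 3 is lowest at hoxb3a and from hoxb5a to hoxb10a and highest at hoxb4a, with 26.9 CPM per kb at hoxb9a against 62.1 to 89.8 CPM per kb in the other samples.

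hoxb1a gives the fourth rhombomere of the hindbrain its identity and is known in zebrafish for its part in the migration of facial motor neurons. Controls 1, 2 and 3 held 26.5, 30.4 and 32.2 CPM of it, and atoh1b-MO 2, 4 and 5 held 30.6, 41.1 and 37.8 CPM. All atoh1b-MO samples lay above controls 1 and 2, with atoh1b-MO 2 just above control 2, but control 3 lay above atoh1b-MO 2. The log2 fold change of atoh1b-MO over control was 0.36 ± 0.15 (SE derived from the edgeR test) with 5 samples (adjusted p = 0.439) and 0.30 ± 0.15 with 6 samples (adjusted p = 0.848).

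hoxb2a acts in rhombomeres of the hindbrain and in neural crest cells leaving them. The gene (ENSDARG00000000175, chr3:23621602-23624283) gave 20.9, 19.3 and 16.9 CPM for controls 1, 2 and 3, and 14.4, 16.7 and 16.2 CPM for atoh1b-MO 2, 4 and 5. With TMM scaling this was the single member whose 3 controls all lay on the same side of the 3 atoh1b-MO samples, with a gap between control 3 and atoh1b-MO 4 far smaller than the spread within either group. edgeR put the log2 fold change at -0.34 ± 0.15 with 5 samples (adjusted p = 0.434) and -0.27 ± 0.14 with 6 samples (adjusted p = 0.848).

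hoxb3a patterns the caudal hindbrain and had the highest level of the anterior genes. Controls 1, 2 and 3 held 131, 108 and 91.4 CPM, and 99.8, 101 and 109 CPM were found for atoh1b-MO 2, 4 and 5. The atoh1b-MO samples lay close together, with atoh1b-MO 5 overlapping control 2, and control 3 was the lowest of all samples. Its log2 fold change was -0.21 ± 0.10 with 5 samples (edgeR, adjusted p = 0.514) and -0.09 ± 0.14 with 6 samples (adjusted p = 0.914).

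hoxb4a marks the most caudal hindbrain and responds to retinoic acid in zebrafish. For controls 1, 2 and 3 the values were 11.4, 7.14 and 14.1 CPM, and for atoh1b-MO 2, 4 and 5 they were 9.91, 10.04 and 9.86 CPM. The atoh1b-MO samples were almost equal and fell between controls 1 and 2, which differed 1.604-fold from each other, and control 3 was the highest of all. In edgeR the log2 fold change was 0.10 ± 0.23 with 5 samples (adjusted p = 0.904) and -0.13 ± 0.26 with 6 samples (adjusted p = 0.940).

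**Figure D2:**
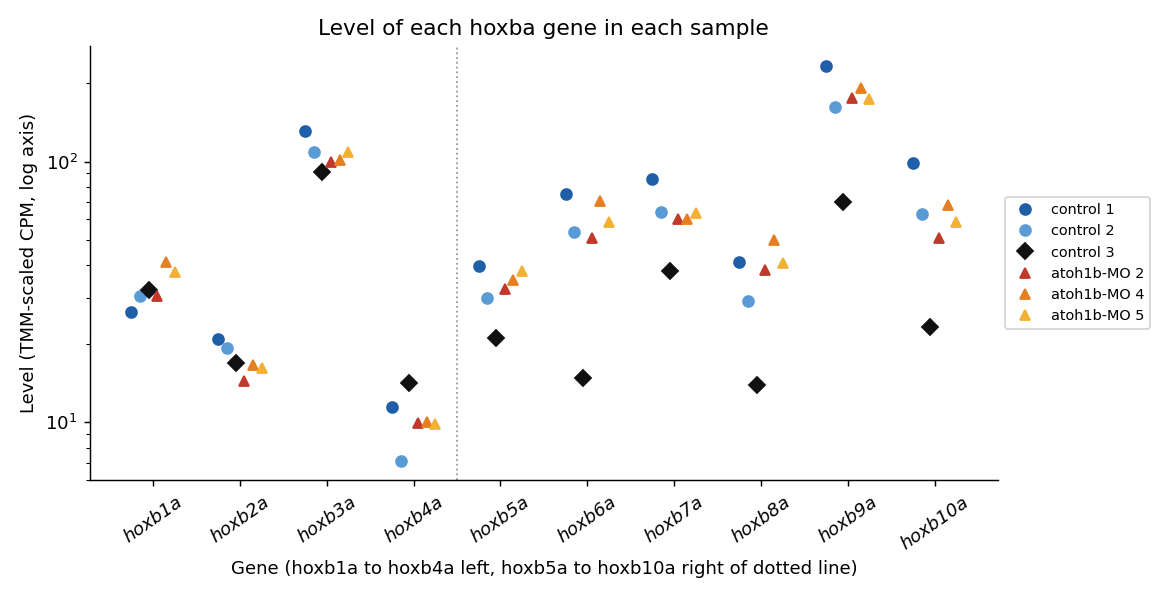
Level of each hoxba gene (TMM-scaled CPM, logarithmic axis) in each sample, with circles for controls 1 and 2, diamonds for control 3 and triangles for the atoh1b-MO samples. The dotted line separates hoxb1a to hoxb4a from hoxb5a to hoxb10a. In hoxb5a to hoxb10a the diamond is the lowest point each time, between 13.9 CPM in hoxb8a and 69.8 CPM in hoxb9a, whereas the circles and triangles intermingle in most genes.

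hoxb5a is the first of the genes read as posterior and, with its hoxbb copy hoxb5b, is known in zebrafish for work in pectoral fin positioning. Levels of hoxb5a (ENSDARG00000013057) were 39.9, 30.0 and 21.0 CPM for controls 1, 2 and 3, and 32.4, 35.2 and 38.2 CPM for atoh1b-MO 2, 4 and 5. The atoh1b-MO samples fell between controls 1 and 2, and control 3 was below all of them. Fitted with edgeR, the log2 fold change was 0.02 ± 0.15 with 5 samples (adjusted p = 0.976) and 0.22 ± 0.23 with 6 samples (adjusted p = 0.894).

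hoxb6a is expressed in trunk neural and mesodermal tissue. The gene (ENSDARG00000010630) reached 75.2, 53.9 and 14.7 CPM across controls 1, 2 and 3, against 50.8, 70.6 and 58.8 CPM across atoh1b-MO 2, 4 and 5. The groups overlapped without control 3, and control 3 held 22.9% of the mean of controls 1 and 2, the lowest share of the 10 genes and 3.45-fold below the next sample. Its log2 fold change was -0.10 ± 0.18 with 5 samples (edgeR, adjusted p = 0.880) and 0.33 ± 0.52 with 6 samples (adjusted p = 0.923).

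hoxb7a, which in the mouse patterns the thoracic region, had values of 85.9, 64.3 and 37.9 CPM for controls 1, 2 and 3, and of 60.2, 60.4 and 63.6 CPM for atoh1b-MO 2, 4 and 5. Controls 1 and 2 both lay above the atoh1b-MO samples, control 2 only just, and control 3 lay below. For hoxb7a edgeR gave a log2 fold change of -0.28 ± 0.13 with 5 samples (adjusted p = 0.465) and -0.03 ± 0.27 with 6 samples (adjusted p = 0.986).

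hoxb8a, a gene of the trunk neural tube and mesoderm, amounted to 41.2, 29.1 and 13.9 CPM for controls 1, 2 and 3, and to 38.4, 50.0 and 40.9 CPM for atoh1b-MO 2, 4 and 5. Control 1 lay among the atoh1b-MO samples, control 2 below them and control 3 lowest. The log2 fold change was 0.30 ± 0.18 with 5 samples (edgeR, adjusted p = 0.584) and 0.62 ± 0.37 with 6 samples (adjusted p = 0.858), the largest value of the 10 genes in that comparison.

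hoxb9a, a gene of the posterior trunk, had the highest CPM of the cluster in all samples but control 3 (hoxb3a 91.4 CPM). The gene (ENSDARG00000056023, chr3:23546803-23551888) reached 233, 161 and 69.8 CPM across controls 1, 2 and 3, against 175, 191 and 173.0 CPM across atoh1b-MO 2, 4 and 5. The atoh1b-MO samples lay between controls 1 and 2, which differed 1.45-fold. This came to a log2 fold change of -0.13 ± 0.14 with 5 samples (edgeR, adjusted p = 0.792) and 0.22 ± 0.39 with 6 samples (adjusted p = 0.932).

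hoxb10a has no HoxB counterpart in mammals and is, among the 10 genes, the one of highest paralogue number. Controls 1, 2 and 3 held 98.5, 62.8 and 23.1 CPM of it, and atoh1b-MO 2, 4 and 5 held 51.0, 67.9 and 58.4 CPM. Control 1 stood above all other samples, control 2 lay among the atoh1b-MO samples, and controls 1 and 2 differed 1.57-fold. The fitted log2 fold change was -0.44 ± 0.19 with 5 samples (edgeR, adjusted p = 0.458) and -0.06 ± 0.46 with 6 samples (adjusted p = 0.986).

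The morpholino comparison thus called 0 of the 10 genes at an adjusted p below 0.1 in the quasi-likelihood test of edgeR. With 5 samples 110 of 18397 tested genes (0.598%) were called, and with 6 samples 0 of 17874 (0%). On leaving out an atoh1b-MO library with 5 samples, the count ranged from 36 (without atoh1b-MO 4) to 260 (without atoh1b-MO 2). At an unadjusted p below 0.05, 2 of the 10 genes (hoxb1a and hoxb2a) passed with 5 samples, where 11.2% of all tested genes passed, and 0 of 10 passed with 6 samples, where 5.82% of all tested genes did. DESeq2 and limma voom with sample weights, run on the same samples, also called 0 of the 10 genes. The groups did not overlap in 3 of 10 genes with 5 samples (hoxb1a, hoxb2a and hoxb7a), against 29.8% of all tested genes, and in 1 of 10 with 6 samples (hoxb2a), against 13.2%. These shares were near those of all genes, and the non-overlapping genes changed with the scaling: with DESeq2's size factors hoxb1a dropped out, and with library size alone hoxb7a dropped out and hoxb1a replaced hoxb2a with 6 samples. A p that misses the threshold does not show that the levels were equal, and with 2 or 3 controls the standard errors of 0.10 to 0.23 (5 samples) and 0.14 to 0.52 (6 samples) on the log2 scale limit what could be seen.

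**Figure D3:**
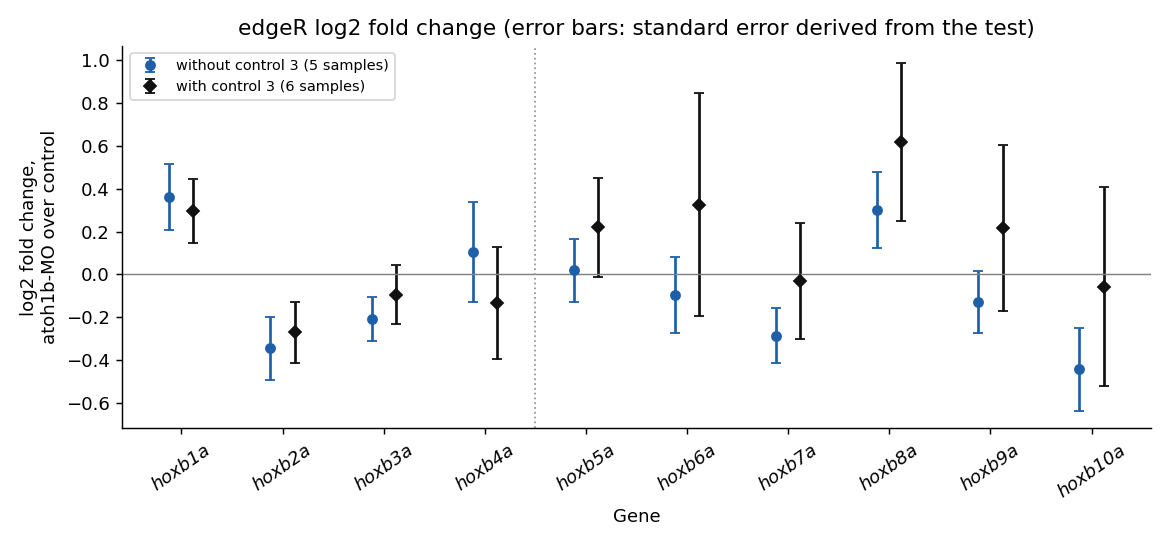
Log2 fold change of atoh1b-MO over control for each hoxba gene, fitted with edgeR without control 3 (circles) and with it (diamonds). Error bars are the standard error derived from the test, and 0 of the 10 genes was called in either fit. The bars lengthen from hoxb5a to hoxb10a once control 3 is included, as in hoxb6a from 0.18 to 0.52, and stay at 0.15 in hoxb1a.

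Direction split both classes of genes. With 5 samples the log2 fold change was positive in 2 of the 4 anterior genes and in 2 of the 6 posterior genes, with medians of -0.05 and -0.11, against a median of 0.01 over all tested genes. With 6 samples it was positive in 1 of 4 and 4 of 6, with medians of -0.11 and 0.22, against -0.02 over all tested genes. The posterior median thus changed sign with control 3.

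Summed over the class, the level per length of hoxb1a to hoxb4a came to 70.6, 63.3 and 64.1 CPM per kb for controls 1, 2 and 3 and to 60.7, 69.3 and 68.7 CPM per kb for atoh1b-MO 2, 4 and 5. These sums hardly differed between any of the samples. The sum of hoxb5a to hoxb10a was 335, 235 and 102 CPM per kb in the controls and 232, 278 and 252 CPM per kb in the atoh1b-MO samples. Controls 1 and 2 spanned the whole range of the atoh1b-MO samples except for atoh1b-MO 2, which was just below control 2, and control 3 lay far below. The posterior genes held 82.6%, 78.7% and 61.3% of the summed level per length in controls 1, 2 and 3 and 79.3%, 80.1% and 78.6% in atoh1b-MO 2, 4 and 5. As 6 of the 10 genes are posterior, the share in control 3 was close to that of equal levels per gene. The group means were 80.7% ± 2.72 (SD, n = 2) for controls 1 and 2 and 79.3% ± 0.749 (SD, n = 3) for atoh1b-MO, a difference of -1.37 percentage points within the spread of the controls. With control 3 the control mean was 74.2% ± 11.3 (SD, n = 3), and the difference turned to 5.08 percentage points.

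Control 3 was the lowest sample in all 6 posterior genes, and in the anterior genes its position varied from gene to gene. Its anterior sum was 0.958 times and its posterior sum 0.357 times the mean of controls 1 and 2, and its posterior share was 19.4 percentage points lower than their mean. Of the 10 genes, 7 had their lowest level of all 6 samples in control 3, where 28.6% of all tested genes did: hoxb3a and each of hoxb5a to hoxb10a. In 1 gene, hoxb4a, control 3 was the highest sample, as in 27% of all tested genes. In 4 of 10 genes (hoxb6a, hoxb8a, hoxb9a and hoxb10a) control 3 was at least 2-fold below the mean of controls 1 and 2, as in 11.5% of all tested genes. A single sample has no replicate of its own, so these are values of this library, given with no test.

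As a percentage of the mean of controls 1 and 2, control 3 held 113% of hoxb1a, 84.0% of hoxb2a, 76.3% of hoxb3a and 152% of hoxb4a. It held 60.0% of hoxb5a, 22.9% of hoxb6a, 50.5% of hoxb7a, 39.5% of hoxb8a, 35.4% of hoxb9a and 28.7% of hoxb10a. The border between hoxb4a and hoxb5a was given by the 2 classes and was not found from these values. hoxb5a with 60.0% lay nearer to hoxb3a with 76.3% than to hoxb6a with 22.9%. Within the posterior class hoxb6a was lower than its neighbours. The nephric, blood and neural marker sums of atoh1b-MO 2 lay nearest to those of control 3 but well short of them. Its nephric sum was 1612 CPM against 164 CPM, and its hindbrain and neural plate sum 644 CPM against 1346 CPM. Of the other 5 samples, atoh1b-MO 2 had the lowest level in hoxb6a, hoxb7a and hoxb10a, but not in hoxb5a, hoxb8a or hoxb9a. Its posterior share was 79.3%, within the range of the other 5 samples. The nephric, blood and neural markers that moved in control 3 are given above, and their part in the low posterior levels was not tested.

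**Figure D4:**
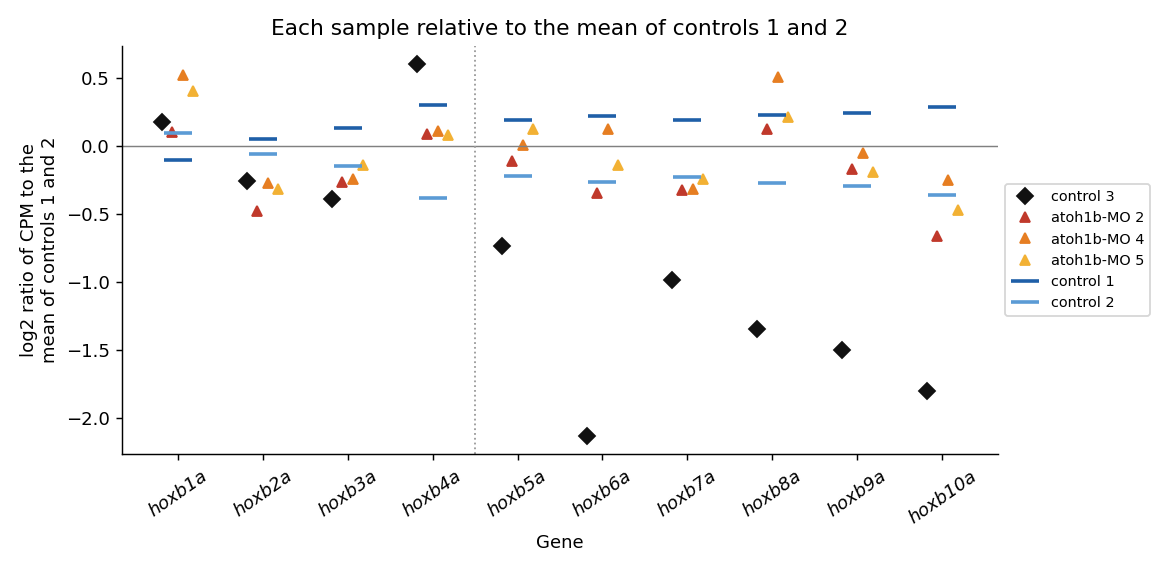
Log2 ratio of the CPM of each sample to the mean of controls 1 and 2 for each hoxba gene. Horizontal ticks mark controls 1 and 2, diamonds control 3 and triangles the atoh1b-MO samples, and the dotted line separates hoxb1a to hoxb4a from hoxb5a to hoxb10a. All triangles lie above both ticks at hoxb1a and below both at hoxb2a and hoxb7a, and in the other genes they overlap the range of the ticks. The diamond is the lowest point at hoxb3a and from hoxb5a to hoxb10a, down to -2.13 at hoxb6a, and the highest at hoxb4a.

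The other Hox genes were examined in control 3 by paralogue group, the number in the gene's name. Outside the members 37 genes had a zebrafish Hox symbol, and of these 9 belong to groups 1 to 4 and 28 to groups 5 to 13. A Hox gene without such a symbol would not be among them. In groups 1 to 4, control 3 was lowest in 2 genes and highest in 5, with a median log2 ratio to the mean of controls 1 and 2 of 0.44, and the 4 members of these groups had a median of -0.04. In groups 5 to 13, 27 genes were tested, and of these control 3 was lowest in 21, highest in 2 and at least 2-fold down in 18. Their median log2 ratio was -1.12, and the 6 posterior members had a median of -1.42. Over all tested genes control 3 was lowest in 28.6%, highest in 27% and at least 2-fold down in 11.5%. The median log2 ratio of these 18397 genes was -0.02. The hoxbb copies were not alike. hoxb6b had 17.1, 13.9 and 17.9 CPM for controls 1, 2 and 3 and hoxb5b had 31.6, 23.0 and 26.1 CPM, so neither was lowest in control 3, unlike hoxb6a and hoxb5a. hoxb8b was at 26.8, 20.3 and 7.62 CPM, or 32.4% of the mean of controls 1 and 2, much as hoxb8a. hoxb1b was at 72.2, 60.4 and 53.8 CPM and was lowest in control 3, unlike hoxb1a.

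**Figure D5:**
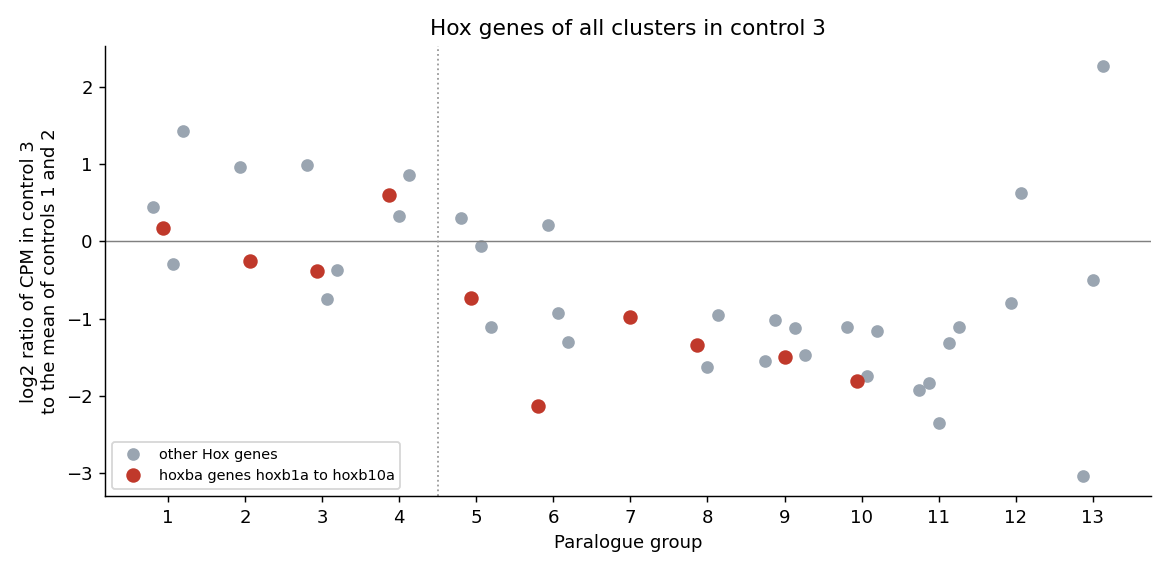
Log2 ratio of the CPM in control 3 to the mean of controls 1 and 2 for Hox genes, by paralogue group. Shown are 44 of the 47 genes with a zebrafish Hox symbol, with the 10 hoxba genes in red and the others in grey. The 3 genes with no count in control 3 or in controls 1 and 2 (hoxc12b, hoxc13a and hoxb13a) have no ratio and are left out. In groups 1 to 4 the points lie between -0.75 and 1.43 and in groups 5 to 12 between -2.34 and 0.63, with the hoxba genes among them. With group 13, of which hoxd13a is at 2.26, groups 5 to 13 span -3.03 to 2.26.

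In the morpholino comparison, 0 of the 36 tested Hox genes outside the members was called in either fit of edgeR, with 11 at an unadjusted p below 0.05 with 5 samples, where 11.2% of all tested genes passed, and 2 with 6 samples, where 5.82% did. Their log2 fold change was negative in 27 of 36 with 5 samples, with a median of -0.27. The members had 6 of 10 negative with a median of -0.11, against a median of 0.01 over all tested genes. Once control 3 was included, 22 of 36 were negative, with a median of -0.07. The members then had 5 of 10 negative with a median of 0.09, against -0.02 over all tested genes. Summed over the 37 genes outside the members, controls 1, 2 and 3 held 1220, 844 and 666 CPM. The sums of atoh1b-MO 2, 4 and 5 were 847, 900 and 862 CPM. Control 1 thus lay above all atoh1b-MO samples, whereas control 2 lay just below them.

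Hox proteins bind DNA with cofactors of the Pbx and Meis families. Of 14 such genes listed, 12 were found and tested, and the highest CPM were those of pbx4, meis1b and meis3. Their median log2 fold change over the 12 genes was 0.18 with 5 samples and 0.06 with 6 samples. Of the 12, 1 was called with 5 samples, where 0.598% of all tested genes were called. This was meis2b, with a log2 fold change of 0.53 ± 0.10 (edgeR, adjusted p = 0.0974). It rose from 53.4 and 50.9 CPM in controls 1 and 2 to 77.4, 77.4 and 70.6 CPM in atoh1b-MO 2, 4 and 5. Control 3 was above all of them with 108 CPM, and with 6 samples the log2 fold change was 0.09 ± 0.29 (adjusted p = 0.965). With 5 samples the call was also lost in edgeR with DESeq2's size factors (adjusted p = 0.101) and without atoh1b-MO 4 (0.356) or atoh1b-MO 5 (0.174). limma voom did not call it either (adjusted p = 0.110). The call was kept in edgeR with library size alone (adjusted p = 0.061), no filter (0.020), 10 counts in all samples (0.093) and without atoh1b-MO 2 (0.086). DESeq2 called it too (adjusted p = 0.00045). Leaving out control 1 or control 2 leaves 1 control, so no call is read from these fits. The log2 fold change was then 0.56 or 0.49.

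Retinoic acid and Cdx factors set the borders of Hox expression. Of 15 genes listed for them 13 were tested, and 0 was called by edgeR in either fit, with 4 of 13 at an unadjusted p below 0.05 with 5 samples (11.2% of all tested genes) and 1 with 6 samples (5.82%). Their median log2 fold change was -0.05 with 5 samples and -0.24 with 6 samples. Of the Cdx genes listed only cdx4 was found. It had the highest CPM together with the receptor genes rarab and raraa. aldh1a2, which makes retinoic acid, had 58.7, 44.3 and 42.0 CPM for controls 1, 2 and 3 and 25.2, 48.8 and 48.4 CPM for atoh1b-MO 2, 4 and 5. cdx4, an activator of posterior Hox genes in zebrafish, had 177, 121 and 227 CPM in the controls and 181, 143 and 136 CPM in the atoh1b-MO samples. It was highest in control 3. cyp26a1, cyp26b1 and cyp26c1, which degrade retinoic acid, were highest in control 3 as well, with 56.7, 26.4 and 81.4 CPM. Of the 13 tested genes 5 were highest and 4 lowest in control 3, against 27% and 28.6% of all tested genes. A link between these levels and those of the hoxba genes was not tested.

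Of 12 genes listed for hindbrain segmentation, 11 were found and 9 were tested, and 0 was called by edgeR in either fit, with 1 of 9 at an unadjusted p below 0.05 with 5 samples (11.2% of all tested genes) and 0 with 6 samples (5.82%). Their median log2 fold change was 0.11 with 5 samples and -0.56 with 6 samples. Of the 9 tested, 4 were negative with 5 samples and 8 with 6 samples. In CPM, hnf1ba, efnb2a and ephb4a were highest. egr2b, which marks the third and the fifth rhombomere, had 6.05, 7.19 and 75.7 CPM for controls 1, 2 and 3 and 32.6, 3.13 and 5.24 CPM for atoh1b-MO 2, 4 and 5. hoxb2a, which in mouse and zebrafish is expressed in these rhombomeres among others, had 16.9 CPM in control 3 and 14.4 CPM in atoh1b-MO 2. It was not high in these samples with high egr2b. hoxa2b, also of paralogue group 2, was highest in control 3. Its values were 11.0, 8.53 and 18.9 CPM for controls 1, 2 and 3 and 10.1, 7.28 and 9.79 CPM for atoh1b-MO 2, 4 and 5. A link between egr2b and these genes was not tested.

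Of the 15 genes examined around the members, 5 lay before, 5 overlapped the span of the cluster and 5 lay after it. The filter was passed by 10, and 0 was called by edgeR in either fit. With 5 samples 2 of 10 were at an unadjusted p below 0.05 (11.2% of all tested genes), and with 6 samples 0 (5.82%). Control 3 was lowest in both tested genes that overlap the span, which are themselves transcribed at low level. The antisense gene ENSDARG00000097891, which shares exon bases with hoxb3a, is among them. It reaches past hoxb1a and had 10 to 37 counts per sample. Of the 8 tested genes outside the span, control 3 was lowest in 0 and highest in 4. eve1, an even-skipped gene on the hoxb10a side of the cluster, had 9.47, 4.95 and 11.3 CPM for controls 1, 2 and 3 and 6.01, 4.35 and 4.78 CPM for atoh1b-MO 2, 4 and 5. hoxb13a, the next Hox gene on that side, had 0 to 5 counts per sample, near the floor of 3 counts. igf2bp1 and cbx1a, the most abundant genes to either side, were at 419 to 621 CPM and at 191 to 248 CPM over the 6 samples.

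Among 9057 genes of sufficient level, those whose log2 CPM over the 6 samples was most like the mean of hoxb5a to hoxb10a were hand2, with a Pearson correlation of 0.996, followed by cmtm6, calcoco1a, asap1a and tcf3b, all above 0.99. hand2, a factor of lateral plate mesoderm and heart, had 172, 101 and 29.7 CPM for controls 1, 2 and 3 and 108, 156 and 132 CPM for atoh1b-MO 2, 4 and 5. Without control 3 its correlation was 0.964. These values describe likeness over 6 libraries that all genes share, and 350 of the 9057 genes had a correlation above 0.95.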

How the data were processed

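The authors deposited featureCounts output, with raw counts of reads for each Ensembl gene beside its length in bases. The submitters' processing notes name featureCounts version 1.5.3 and GRCz10, whereas the study names another version and GRCz11. The coordinates are given as GRCz10, as 2768 identifiers of the name table lie above the highest of the count table. Strand use in counting is not given in the sources used here. All 92 spike-in rows held 0 counts. Symbols were matched by Ensembl identifier (26433 of 32266 genes). A human-style symbol was replaced by the zebrafish gene of that name on the same chromosome where only 1 was there, and was otherwise dropped. The lists used the 24545 zebrafish symbols that resulted, so listed genes without one were not found.

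Counts were tested with edgeR (version 4.0.16, R version 4.3.3) after TMM scaling and filterByExpr, with the quasi-likelihood test and Benjamini-Hochberg adjustment over all tested genes, at the study's false discovery rate of 0.1. Its clutch factor was not used, since the labels give no clutch, so p-values measure the spread between these samples. The SE was obtained from the log2 fold change and the F statistic of the test. Levels are CPM, divided by exon length in kb where so stated. Scripts were tested on simulated data.

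At 24120228 to 37169850 total counts per sample, 3 counts equal 0.0807 to 0.124 CPM (counting error only). Pairs of samples differed by a chi-square of 10.6 to 102 per degree of freedom, so none was a duplicate.

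The alternatives were other scalings (size factors of DESeq2, or none beyond library size), other filters (none, or 10 counts in all samples), other tools (DESeq2 version 1.42.0, voom of limma version 3.58.1), a stricter adjusted p of 0.05 and omission of each replicate. Shares were also computed without the length term, from unshared exon bases and with hoxb5a as anterior. Named were all 10 members, their neighbours, of each pathway list the genes called or else the 3 of highest mean CPM, a few markers, and the 5 genes of at least 10 CPM most like hoxb5a to hoxb10a by correlation. aldh1a2, gbx2, hoxa2b, the cyp26 genes and the hoxbb copies were chosen after their values were seen. Members and lists were chosen with earlier results of these data known.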

Additional observations from a re-analysis of the deposited data

How the results depend on the processing

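With 0 of 10 hoxba genes called, the count was the same under all alternatives in both comparisons. The lowest adjusted p of a member was 0.233 under the other settings and 0.190 on leaving out a replicate with 5 samples, and 0.431 and 0.434 with 6 samples. With 5 samples no log2 fold change turned its direction under the 60 values of other settings. With 6 samples 3 of 60 did: hoxb4a with voom (0.20), and hoxb7a (0.034) and hoxb10a (0.0069) with library size alone.

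On leaving out each replicate with 5 samples, the log2 fold change ranged from -0.21 to 0.48 for hoxb4a, from -0.18 to 0.23 for hoxb5a, from -0.33 to 0.15 for hoxb6a and from -0.38 to 0.15 for hoxb9a. With 6 samples it ranged from -0.21 to 0.048 for hoxb3a, from -0.36 to 0.10 for hoxb4a, from -0.10 to 0.80 for hoxb6a, from -0.28 to 0.26 for hoxb7a, from -0.13 to 0.63 for hoxb9a, from -0.44 to 0.46 for hoxb10a and from -0.10 to 0.53 for meis2b. Where 1 control is left, it is assumed to vary like the other group.

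The posterior share moved to 73.0% in controls 1 and 2 and 72.6% in atoh1b-MO without the length term, to 75.1% and 73.1% with hoxb5a counted as anterior, and to 78.4% in atoh1b-MO with unshared exon bases. On leaving out each replicate it ranged from 78.7% to 82.6% in controls 1 and 2, from 70.0% to 80.7% in controls 1 to 3 and from 78.9% to 79.7% in atoh1b-MO. The ratio of the posterior sums, atoh1b-MO over control, was 0.892 with 5 samples and 1.14 with 6, and ranged from 0.759 to 1.08 and from 0.892 to 1.51. With 6 samples the ratio was below 1 only without control 3. With 5 samples it was above 1 only without control 1, and in both comparisons it was highest without control 1.

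Calls of the fits with 1 control left are not read. Over all genes, the 110 calls with 5 samples became 260, 36 and 67 without atoh1b-MO 2, 4 and 5. They also depended on the tool: with 5 samples 690 genes were called by DESeq2, 488 by edgeR with no filter and 84 by voom, against 110, and with 6 samples 112 by DESeq2 and 21 by voom, against 0. The cause was not tested. Added after the data were seen, DESeq2's size factors and library size alone left control 3 lowest in each of hoxb5a to hoxb10a. No paired analysis was possible because the groups share fewer than 2 replicate numbers. With 2 or 3 controls, the number of samples limits how small a change of a member could be seen.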
